A study of Homo sapiens with 4 samples.

Results

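Serine/arginine-rich (SR) proteins, heterogeneous nuclear ribonucleoproteins (hnRNPs) and a set of cell-type splicing regulators were followed by their messenger RNA levels, 38 genes chosen by name. The list holds SRSF1 to SRSF12, both TRA2 genes, 17 hnRNP genes, RBFOX2, ESRP1, ESRP2, MBNL1, MBNL2, CELF1 and QKI. All 38 had at least 1 probe, and 35 passed the detection filter, out of 11439 genes tested. A gene was tested if a probe of it had a detection p under 0.01, the array's own measure of signal above background, on at least 2 arrays. The brightest such probe stood for the gene. SRSF12, ESRP1 and ESRP2 were not detected on any of the 4 arrays.

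The samples were MDA-LM2 shDicer cells, a lung-metastatic derivative of MDA-MB-231, a human triple-negative breast cancer line, here with a short hairpin against Dicer. They were transfected with siTARBP2-1 or siTARBP2-2 (1 array each, called knockdown here) or with a control siRNA (siControl-1 and siControl-2, 1 array each), and RNA was taken at 48 h. The hairpin is in the knockdown and the control cells alike, and no array of cells without it was used. The design text names the TARBP2 siRNAs as independent and the reference cells as mock-transfected, while the labels of those cells read siControl. Separate cultures are not stated, and the p-values cover only how far these 4 samples scatter, possibly for technical reasons.

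SR proteins bind exonic enhancers through RNA recognition motifs and recruit the splicing machinery through a domain of repeated arginine and serine residues, which SRPK and CLK kinases phosphorylate. hnRNPs often act against them by binding silencers, and both families also take part in export, stability and translation of messenger RNA. Factors such as RBFOX2, ESRP1 and QKI are known for cell-type exon choices, including those of the epithelial to mesenchymal transition in breast cells. TARBP2 is a double-stranded RNA-binding partner of Dicer. The arrays read RNA levels of these regulators, not the splicing of their targets.

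The arrays detected 39.1% to 40.8% of their 47323 probes, and their number limits the precision. TARBP2 read 6.11 and 5.79 in knockdown cells, against 9.27 and 9.25 in control cells, on the log2 scale of normalized signal used throughout. This was 9.89-fold lower. In the series matrix the same arrays stand under the opposite group labels, with TARBP2 higher under the knockdown label, so the directions here follow how the non-normalized table names its columns. The authors' deposited table gives TARBP2 at -1.91 and -1.29 for its 2 accessions, the same direction as those names. Probes got their gene names by matching these deposited values in that direction. The shared sign was thus fixed by the naming and is no separate support for the directions. DICER1, the hairpin's target, read 7.68 and 7.76 in knockdown cells and 7.80 and 7.82 in control cells (limma adjusted p = 0.443). Of markers that this line should show, VIM, CD44, SPARC and MSN were detected on all 4 arrays and FN1 on 1. Of those listed as absent or low in it, CDH1, ESR1 and PGR were not detected on any array. ERBB2 was detected on all 4, and no probe was joined to EPCAM. Among markers of other cells 1 of 5 for blood (CD14) and 2 of 5 for fibroblasts and endothelium (PDGFRB and PECAM1) were detected, none of them called different (CD14 gave 0.21, and with median scaling it was called higher at 0.28), and PTPRC, CD3E, HBB, PDGFRA, DCN and CDH5 were not detected on any array. SPARC (log2 fold change 0.72) and CD44 (0.13) were higher and ERBB2 (-0.27) was lower in knockdown cells, and whether they bear on the values below was not tested.

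Of the 35 tested splicing regulators, 8 rose and 6 fell in TARBP2 knockdown cells at a limma adjusted p under 0.05, and 21 did not pass. These 14 of 35 lay near the background, since 34.3% of all genes tested were called. In single directions, 17.1% of all genes were called higher and 17.2% lower. TRA2A, HNRNPH1, RBFOX2, HNRNPA1, SRSF7, MBNL1, SRSF3 and SRSF6 rose. HNRNPH3, SRSF1, SRSF5, SRSF8, HNRNPC and HNRNPM fell. No member changed 2-fold or more, and the median log2 fold change was -0.05, against -0.01 over all genes. The knockdown and control arrays did not overlap for 27 of the 35 (77.1%), against 67.1% of all genes. An exact permutation of 2 against 2 arrays cannot give a p below 0.333, so each call rests on limma's variance model across genes. With the arrays scaled to a common median in place of quantile normalization, 7 members rose and 3 fell. Over all genes that scaling turned the share of higher calls to 67.5%, against 49.9%, and moved the median of all genes to 0.04.

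**Figure D1:**
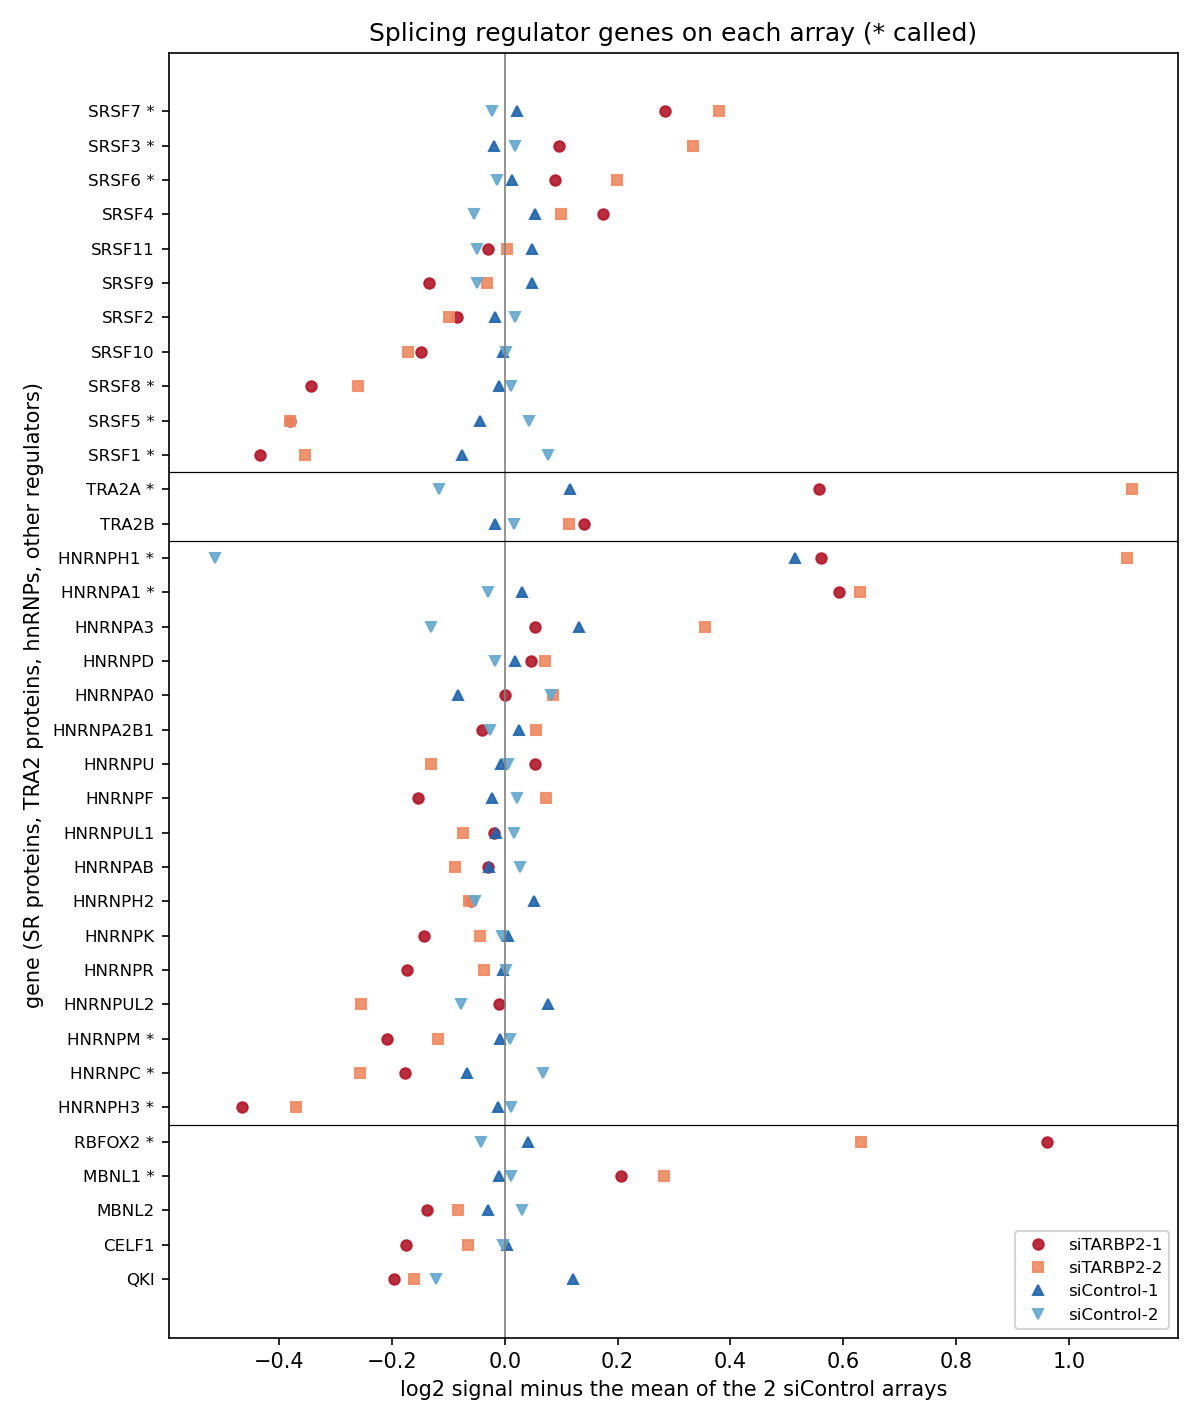
Log2 signal of the 35 tested genes on each array, minus the mean of the 2 control arrays (x axis), by family (y axis), with red and orange for the siTARBP2 arrays, blue for the siControl arrays and an asterisk for genes called by limma. TRA2A, HNRNPA1 and RBFOX2 stand clear of their controls, while the HNRNPH1 control arrays, at 10.91 and 9.88, lie far from each other.

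Among the SR proteins 3 rose, 3 fell and 5 did not pass, of 11 tested. That is 27.3% each way, where 17.1% of all genes rose and 17.2% fell. SRSF1, the founding member of the family, which selects among competing splice sites and acts as an oncogene when overproduced in breast cells, read 11.90 and 11.99 in knockdown cells, against 12.26 and 12.42 in control cells. Both knockdown arrays lay below both control arrays. The log2 fold change was -0.39 ± 0.06 (SE), which is 1.31-fold lower (limma adjusted p = 2.05e-04). SRSF5, another activator of exon inclusion, read 11.51 and 11.51 in knockdown cells and 11.85 and 11.93 in control cells. Here the knockdown arrays gave nearly the same value, well under the controls, with a log2 fold change of -0.38 ± 0.05 (SE) (limma adjusted p = 1.27e-04). Its other probe gave -0.49. SRSF8, a retrotransposed relative of SRSF2, read 10.34 and 10.43 in knockdown cells, against 10.68 and 10.70 in control cells. It was 1.23-fold lower (log2 fold change -0.30, standard error 0.06, limma adjusted p = 0.00154). Its call ended with median scaling (limma adjusted p = 0.0685). Whether its probe also binds SRSF2 transcripts was not tested. SRSF2 itself, which stays in the nucleus and works in constitutive and regulated splicing, gave -0.09 (limma adjusted p = 0.160).

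SRSF7, which links splicing with polyadenylation and export of messenger RNA, was the SR gene that rose most. It read 10.48 and 10.58 in knockdown cells, against 10.22 and 10.17 in control cells, and its groups did not overlap. The log2 fold change was 0.33 ± 0.06 (SE), or 1.26-fold higher (limma adjusted p = 9.82e-04). SRSF3, the smallest SR protein and a partner of SRSF7 in export, read 10.39 and 10.63 in knockdown cells and 10.28 and 10.32 in control cells. The siTARBP2-1 array lay only just above the controls, and the log2 fold change was 0.22 ± 0.07 (SE) (limma adjusted p = 0.0363). Without siTARBP2-2 the fold change of SRSF3 was 0.10 and its call ended (limma adjusted p = 0.334), while without siTARBP2-1 it was 0.33. The call also ended without either control array, with no detection filter and without a variance trend (limma adjusted p between 0.0830 and 0.150). SRSF6, a regulator of skin and tau exons, read 13.18 and 13.29 in knockdown cells, against 13.11 and 13.08 in control cells, a small rise of 0.14 ± 0.05 (SE) (limma adjusted p = 0.0412). Its call ended under 7 of 12 alternatives, among them median scaling (limma adjusted p = 0.326) and leaving out siTARBP2-2 (0.244, with a fold change of 0.09).

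The other SR genes did not pass. SRSF10, which turns into a repressor of splicing when it loses its phosphate groups, read 9.31 and 9.29 in knockdown cells and 9.46 and 9.47 in control cells. Its replicates were close and its groups apart (log2 fold change -0.16, limma adjusted p = 0.0706). Its other probe past the filter gave -0.30 and passed in the fit over all probes (limma adjusted p = 0.0374), and the mean of both SRSF10 probes gave -0.23 (0.0234). SRSF4 gave 0.14 (limma adjusted p = 0.0985), SRSF9 -0.08 (0.259) and SRSF11 -0.01 (0.906). The SRSF12 probe read 44.0 and 45.6 in knockdown cells, against 48.8 and 58.2 in control cells, as raw signal, with detection p-values between 0.594 and 0.995.

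TRA2A and TRA2B, relatives of the fly sex-determination factor Transformer-2 that bind purine-rich enhancers, are close paralogs. TRA2A read 6.79 and 7.35 in knockdown cells, against 6.35 and 6.12 in control cells. Both knockdown arrays were higher, siTARBP2-2 by more, and the log2 fold change of 0.83 ± 0.16 (SE) was the highest among the members (1.78-fold, limma adjusted p = 0.00123). The TRA2A probe read low, at percentile 19.8 of the mean level over genes tested, and signal near background limits this value. TRA2B read 11.25 and 11.23 in knockdown cells and 11.09 and 11.13 in control cells. Its fold change of 0.13 did not pass (limma adjusted p = 0.0890), although its groups did not overlap.

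Among the hnRNPs 2 rose, 3 fell and 12 did not pass, of 17 tested. That is 11.8% higher and 17.6% lower, where 17.1% of all genes rose and 17.2% fell. HNRNPA1, which binds exonic silencers and counteracts SRSF1, read 8.16 and 8.20 in knockdown cells, against 7.60 and 7.54 in control cells. The arrays of each group lay close together and the groups far apart, with a log2 fold change of 0.61 ± 0.08 (SE) (1.53-fold, limma adjusted p = 7.47e-05). Its dimmer probe, for the same accession, read 7.08 and 6.92 in knockdown cells and 6.95 and 6.84 in control cells, a change of 0.11 that did not pass (limma adjusted p = 0.510 in a fit over all 19295 probes). Even the brighter HNRNPA1 probe read low, at percentile 35.6 of the mean level over genes tested, against 99.0 for HNRNPA2B1. HNRNPA1 has many processed pseudogenes, and which transcripts each probe binds was not tested.

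HNRNPH1 and HNRNPH3 are related proteins that bind runs of guanine, and they changed in opposite directions. HNRNPH1 read 10.95 and 11.50 in knockdown cells, against 10.91 and 9.88 in control cells. Its siTARBP2-1 array lay next to siControl-1, and the siControl-2 array stood far below. The log2 fold change was 0.83 ± 0.23 (SE), the widest error among the members (limma adjusted p = 0.0118). Another HNRNPH1 probe showed the same pattern, with 9.53 and 10.08 in knockdown cells and 9.44 and 8.34 in control cells. The dimmest HNRNPH1 probe read 6.56 and 7.12 in knockdown cells and 6.62 and 5.93 in control cells, so its groups overlapped, and it did not pass (limma adjusted p = 0.0581 over all probes). Without siControl-2 the fold change was 0.32 (limma adjusted p = 0.110), without siControl-1 it was 1.35 (4.52e-06) and without siTARBP2-2 it was 0.56 (0.128). The call also ended with the robust variance model (0.392), without a variance trend (0.145) and with no detection filter (0.0745).

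HNRNPH3 read 10.63 and 10.73 in knockdown cells, against 11.09 and 11.11 in control cells. It was the member with the largest fall, at -0.42 ± 0.06 (SE) (1.34-fold lower by limma, adjusted p = 1.08e-04). Another probe for that accession gave -0.36 (limma adjusted p = 8.32e-04 over all probes), and the probe for NM_021644 gave -0.27 and did not pass (0.0969). HNRNPH2, the X-linked paralog, gave -0.06 (limma adjusted p = 0.470), and HNRNPF, of the same family, gave -0.04 (0.758).

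HNRNPC, which binds uridine tracts and keeps Alu elements from being spliced in as exons, read 11.08 and 11.001 in knockdown cells, against 11.19 and 11.33 in control cells on its probe for NM_031314. The groups were separate by a small margin, with a log2 fold change of -0.22 ± 0.06 (SE) (limma adjusted p = 0.0150). The probe for NM_001077442 read 10.65 and 10.57 in knockdown cells and 10.65 and 10.58 in control cells, and its groups overlapped. The call of HNRNPC ended for the mean of its probes (limma adjusted p = 0.141), on arrays scaled by the median (0.225), without a variance trend (0.0936), without siTARBP2-2 (0.0826) and without siControl-2 (0.176). HNRNPM, which favours the mesenchymal form of CD44, read 12.75 and 12.84 in knockdown cells and 12.95 and 12.96 in control cells. Its log2 fold change of -0.16 ± 0.05 (SE) passed (limma adjusted p = 0.0224), and of its 3 further probes 1 gave -0.19 and the others 0.02 and 0.04. The call of HNRNPM ended under 7 of 12 alternatives, and its averaged probes gave -0.07 (limma adjusted p = 0.396).

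The remaining hnRNP genes gave log2 fold changes between -0.13 and 0.20 and did not pass. HNRNPA3, a paralog of HNRNPA1, read 8.34 and 8.64 in knockdown cells, against 8.42 and 8.16 in control cells, so its groups overlapped (0.20, limma adjusted p = 0.151). HNRNPA2B1, a reader of RNA methylation and sorter of small RNAs, gave 0.01 on its brightest probe, for NM_031243, and -0.27 on its probe for NM_002137, which passed in the fit over all probes (limma adjusted p = 0.0220). On that probe the knockdown cells read 9.04 and 9.27, against 9.46 and 9.40 in control cells. HNRNPK, which binds cytosine-rich stretches, gave -0.09, HNRNPR gave -0.10, HNRNPU, the nuclear scaffold protein, gave -0.04, and its relatives HNRNPUL1 and HNRNPUL2 gave -0.05 and -0.13. The further HNRNPR probes gave 0.09 and -0.06 and did not pass (limma adjusted p = 0.272 and 0.706 over all probes). Further HNRNPK probes gave 0.05, 0.002 and -0.17, and the further HNRNPU probe gave 0.04. Those of HNRNPUL1 gave -0.14, 0.10 and 0.03, and none of these passed. HNRNPAB gave -0.06, HNRNPD, which promotes decay of AU-rich messages, gave 0.06, and HNRNPA0 gave 0.04.

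RBFOX2 rose with the smallest p among the members. It read 9.48 and 9.15 in knockdown cells, against 8.56 and 8.47 in control cells, and both knockdown arrays lay far above both controls. The log2 fold change was 0.80 ± 0.09 (SE), or 1.74-fold higher (limma adjusted p = 2.41e-05). Its dimmer probe was detected on both knockdown arrays and was not well above background on either control array, at 5.56 and 5.84 in knockdown cells, against 4.97 and 4.73 in control cells, or at least 1.37-fold higher. It passed the filter through the knockdown arrays alone, so its difference is a description and no support for the rise. That bound sets the knockdown mean against, on each control array, the lowest value of a detected probe, or the probe's own where that was higher.

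MBNL1, whose sequestration by repeat RNA underlies myotonic dystrophy, read 10.13 and 10.21 in knockdown cells, against 9.92 and 9.94 in control cells. It rose by 0.24 ± 0.06 (SE) (limma adjusted p = 0.00769), and its probe for NM_207295 gave 0.09 and did not pass (0.356 over all probes). Without siTARBP2-2 the call of MBNL1 ended (limma adjusted p = 0.0511). Its paralog MBNL2 gave -0.11 (limma adjusted p = 0.217) and CELF1, which opposes MBNL proteins on muscle exons, gave -0.12 (0.229). The further MBNL2 probes gave 0.06 and -0.006 and did not pass. QKI, a regulator of mesenchymal exons and of circular RNA, was close to background. It read 5.74 and 5.78 in knockdown cells and 6.06 and 5.82 in control cells (-0.18, limma adjusted p = 0.401). The epithelial regulators ESRP1 and ESRP2 were not well above background in either group. The ESRP1 probe had a raw signal of 57.2 and 60.4 in knockdown cells, against 56.2 and 62.6 in control cells, and the ESRP2 probe had 51.8 and 59.1 in knockdown cells, against 53.3 and 52.5 in control cells.

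The start-site regions of SRSF7, HNRNPH3, SRSF1 and SRSF5 are shown as the regulatory sequence of members whose calls passed under every alternative tried. TRA2A, HNRNPA1 and RBFOX2 also passed under all of them, and no promoter of theirs is shown. Each sequence, from RefSeq on GRCh38.p14, runs 5′ to 3′ on the gene's strand from 250 bases before the start to 50 bases after it. SRSF7 lies at chr2:38751445-38751744 on the minus strand, HNRNPH3 at chr10:68331443-68331742 on the plus strand, SRSF1 at chr17:58007197-58007496 on the minus strand and SRSF5 at chr14:69766892-69767191 on the plus strand. Capitals mark matches, on either strand, to 3 motifs. The ETS core was searched as CCGGAAG. The NFY box was searched as CCAAT and the TATA box as TATAAA. An NRF1 motif was searched too and had no match in these 4.
SRSF7: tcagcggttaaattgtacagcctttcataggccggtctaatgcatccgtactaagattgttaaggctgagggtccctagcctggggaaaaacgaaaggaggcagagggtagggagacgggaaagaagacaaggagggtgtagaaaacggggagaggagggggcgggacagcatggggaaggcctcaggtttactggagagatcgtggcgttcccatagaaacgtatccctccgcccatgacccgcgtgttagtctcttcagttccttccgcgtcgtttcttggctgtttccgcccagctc
HNRNPH3: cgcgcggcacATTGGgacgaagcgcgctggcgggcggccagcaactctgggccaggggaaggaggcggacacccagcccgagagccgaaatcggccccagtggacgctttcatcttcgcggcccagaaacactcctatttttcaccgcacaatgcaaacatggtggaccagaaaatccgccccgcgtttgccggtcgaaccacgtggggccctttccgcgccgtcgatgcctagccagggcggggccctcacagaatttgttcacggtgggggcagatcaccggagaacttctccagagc
SRSF1: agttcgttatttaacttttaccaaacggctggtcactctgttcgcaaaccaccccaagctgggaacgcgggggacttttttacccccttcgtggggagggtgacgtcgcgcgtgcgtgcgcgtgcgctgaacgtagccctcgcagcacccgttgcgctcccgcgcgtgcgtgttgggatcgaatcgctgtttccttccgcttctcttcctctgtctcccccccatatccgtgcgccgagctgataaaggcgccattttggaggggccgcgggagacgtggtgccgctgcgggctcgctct
SRSF5: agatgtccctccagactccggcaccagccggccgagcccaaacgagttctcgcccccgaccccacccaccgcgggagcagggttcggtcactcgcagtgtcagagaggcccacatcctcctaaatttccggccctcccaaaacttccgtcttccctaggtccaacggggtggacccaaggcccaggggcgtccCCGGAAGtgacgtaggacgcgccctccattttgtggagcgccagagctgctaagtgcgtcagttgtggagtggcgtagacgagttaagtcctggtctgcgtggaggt

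The ETS core was found once, in SRSF5, and the NFY box once, in HNRNPH3, with no overlap between matches. SRSF7, the only riser of these 4, and SRSF1 held no match. Of 30 tested members in the promoter table, 13 held an NFY box, 5 a TATA box, 4 an ETS core and 0 the NRF1 motif. Over all 27305 promoters of that length the shares were 35.7%, 11.95%, 10.7% and 1.36%, in the same order. Among promoters of the genes tested 37.4% held an NFY box, 5.60% a TATA box, 19.9% an ETS core and 2.40% the NRF1 motif. The median number of CG pairs was 30 in the members' promoters and 26 in those of all genes tested. A match is a description of the letters and not a binding site.

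Each siRNA was also set against the same 2 control arrays, with the spread taken from the controls and a lone array assumed to vary like them. With siTARBP2-1 4 members rose and 6 fell, where 12.9% and 12.7% of all genes did, or 25.6% in all. With siTARBP2-2 9 rose and 6 fell, where 14.0% of all genes did in each direction, or 28.1% in all. TRA2A, HNRNPA1, SRSF7 and RBFOX2 were called higher with each siRNA, and SRSF1, SRSF5, SRSF8 and HNRNPH3 lower with each. These comparisons share their controls. With cyclic loess 5 members were lower with siTARBP2-1 and 6 with siTARBP2-2, and with no detection filter 4 and 5. Most lower calls were lost under other settings. With median scaling 1 member was lower with siTARBP2-1 and 0 with siTARBP2-2. Without a variance trend 0 were lower with either, and higher calls became fewer too. Under each of those settings no member was lower with both siRNAs. How many of all genes were lower with each siRNA under median scaling or without a variance trend was not counted. Whether the loss of lower calls is particular to the members was therefore not tested. With both siRNAs together, lower calls over all genes went from 1967 to 877 with median scaling and to 1377 without a variance trend. TRA2A gave 0.56 with siTARBP2-1 and 1.11 with siTARBP2-2, HNRNPH1 0.56 and 1.10, and SRSF3 0.10 and 0.33. RBFOX2 gave 0.96 with siTARBP2-1 and 0.63 with siTARBP2-2. HNRNPA1 gave 0.59 and 0.63, and SRSF5 gave -0.38 with each. HNRNPC passed only with siTARBP2-2 (limma adjusted p = 0.0171, against 0.0849 with siTARBP2-1) and HNRNPM only with siTARBP2-1 (0.0130, against 0.125 with siTARBP2-2), and neither differed between the siRNAs past the threshold.

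**Figure D2:**
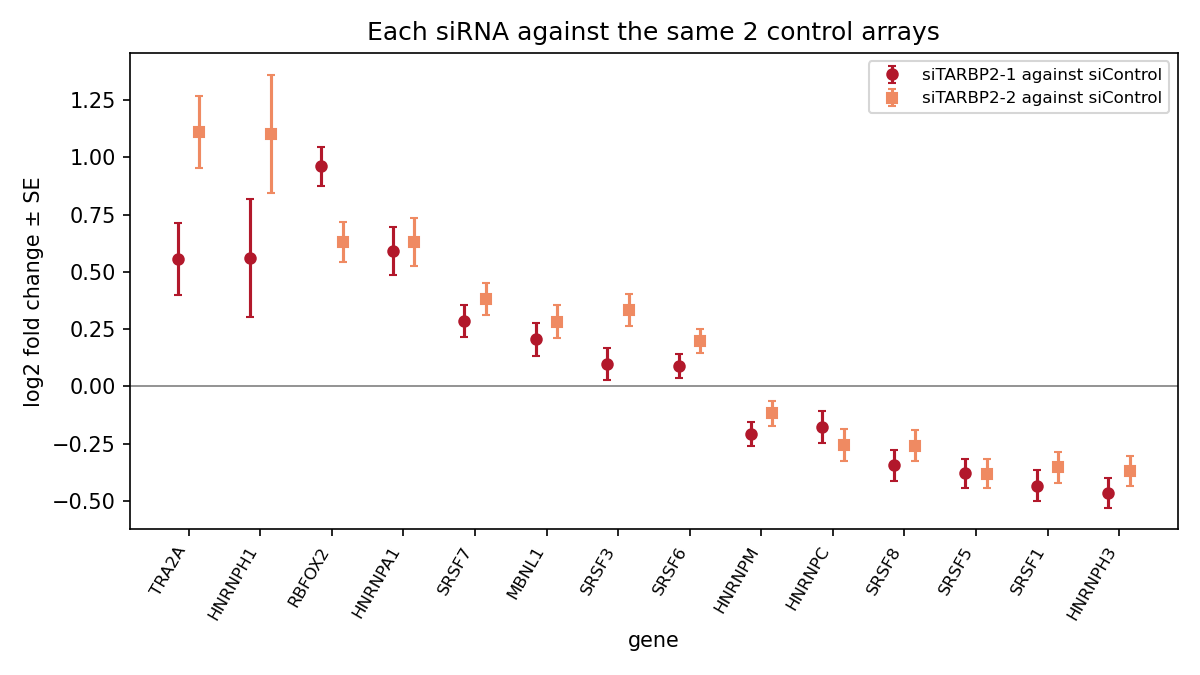
Log2 fold change (y axis) with its standard error for the 14 called genes (x axis), siTARBP2-1 in red and siTARBP2-2 in orange, each against the same 2 control arrays. The 14 were chosen on the mean of these arrays, which favours 1 sign with both siRNAs, and TRA2A and HNRNPH1 reach 1.11 and 1.10 with siTARBP2-2.

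Compared directly, 0 of 35 members differed between the siRNAs by limma at an adjusted p under 0.05, and 5 had an unadjusted p under 0.05. Over all genes 0.0175% were called and 5.92% had an unadjusted p under 0.05. The count of 0 was the same in the 7 alternatives run for this comparison. The 5 were RBFOX2 (siTARBP2-1 minus siTARBP2-2 of 0.33), TRA2A (-0.55), SRSF3 (-0.24), HNRNPUL2 (0.24) and HNRNPA3 (-0.30). Each side was 1 array.

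Of the 35 tested members 21 had more than 1 probe past the filter, 34 further probes in all. Among called members with further probes, SRSF3, SRSF5, HNRNPA1, HNRNPH1, HNRNPH3 and MBNL1 held the sign of the brightest probe in all of them. HNRNPC and HNRNPM held probes of the other sign, of 0.0449 at most. The further RBFOX2 probe is left out of this count, since it was detected on the knockdown arrays only. The change of each further probe was tested against that of the brightest probe of its gene, over 3798 such pairs from all genes, a test chosen after the probe values had been seen. Of the members' 34 pairs 0 passed, and 0.184% of all pairs did. These 34 still hold the RBFOX2 pair, whose further probe entered through the knockdown arrays alone. The widest gap was that of HNRNPA1, whose dimmer probe changed by 0.50 less (difference -0.50, standard error 0.10, unadjusted p = 0.00243, limma adjusted p = 0.132), and it was the only pair of a member with an unadjusted p under 0.05. For HNRNPA2B1 the NM_002137 probe changed by -0.28 relative to the NM_031243 probe (limma adjusted p = 0.355), and for HNRNPC the gap was 0.22 (0.397). A p that misses the threshold does not show that the probes moved alike. Where the probes lie in their transcripts was not used here.

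**Figure D3:**
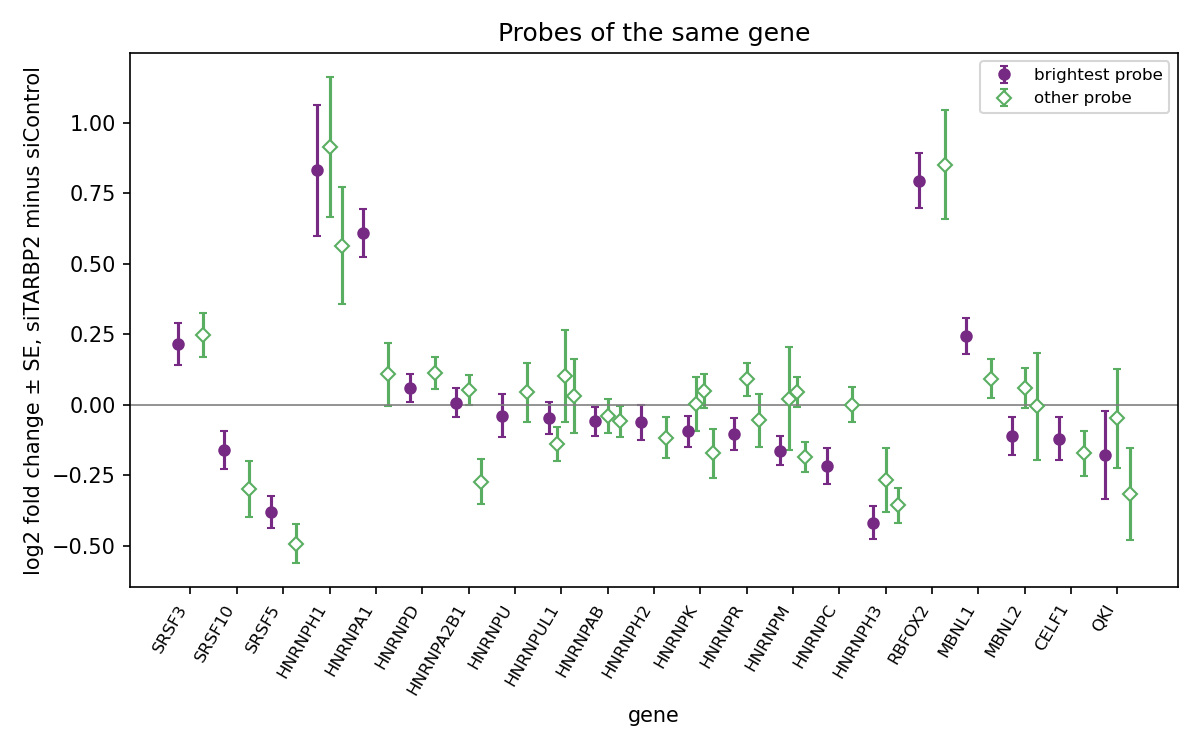
Log2 fold change with its standard error (y axis) for every probe past the filter of the 21 genes with more than 1 (x axis), the brightest probe in filled purple and the others as open green diamonds. The HNRNPA1 probes lie at 0.61 and 0.11, while the SRSF5 probes lie at -0.38 and -0.49.

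The wider splicing machinery was described from lists chosen by role. In the core spliceosome, the small nuclear ribonucleoproteins and helicases that carry out the reaction, 3 of 78 tested genes rose and 19 fell, with a median of -0.06. Over all genes 17.1% rose and 17.2% fell. CWC22, which readies spliceosomes for exon junction complex loading, read 7.64 and 7.65 in knockdown cells, against 8.24 and 8.19 in control cells (-0.57, limma adjusted p = 1.22e-04). DDX46, a helicase that acts early with the U2 particle, read 8.55 and 8.63 in knockdown cells and 9.14 and 9.14 in control cells (-0.55, limma adjusted p = 4.84e-05). SNRPD3 and LSM4, of the Sm and Sm-like rings, rose by 0.29 and 0.18. With median scaling 2 of the 78 rose and 7 fell, where 1825 and 877 of all 11439 genes did.

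Among the SR protein kinases, their phosphatase and importer 2 of 9 rose and 4 fell, with a median of -0.21. That is 22.2% and 44.4%, where 17.1% of all genes rose and 17.2% fell, with a median of -0.01. SRPK1, which phosphorylates SR proteins in the cytoplasm for import, read 12.12 and 12.05 in knockdown cells, against 11.86 and 11.66 in control cells (0.33, limma adjusted p = 0.00151). SRPK2 rose by 0.39 (limma adjusted p = 0.00692), a call that ended once its probes were averaged (0.350). The catalytic subunits of protein phosphatase 1, PPP1CC and PPP1CA, gave -0.50 and -0.32 (limma adjusted p = 5.06e-06 and 0.00320). With median scaling 2 of the 9 rose and 1 fell, where 1825 and 877 of all 11439 genes did.

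Among other regulators and hnRNP-like proteins 7 of 48 rose and 8 fell, with a median of -0.02. That is 14.6% and 16.7%, where 17.1% of all genes rose and 17.2% fell, with a median of -0.01. RBM17, a factor of splice site choice, rose by 0.46 (limma adjusted p = 4.57e-05) and SRRM1, an SR-related coactivator, gave -0.26 (0.00521). The brightest CELF2 probe was detected on both knockdown arrays and on neither control array, and was at least 1.61-fold higher, while its probe for NM_001025077 was detected on the control arrays only. CELF2 entered through the knockdown arrays alone, and with detection required on all 4 arrays 6 of 47 rose and 8 fell. PTBP3, of the polypyrimidine tract binding family, read 9.78 and 9.75 in knockdown cells, against 11.61 and 11.64 in control cells (-1.86, limma adjusted p = 1.48e-10), a fall larger than that of any of the 35 members. With median scaling 6 of the 48 rose and 1 fell, where 1825 and 877 of all 11439 genes did.

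**Figure D4:**
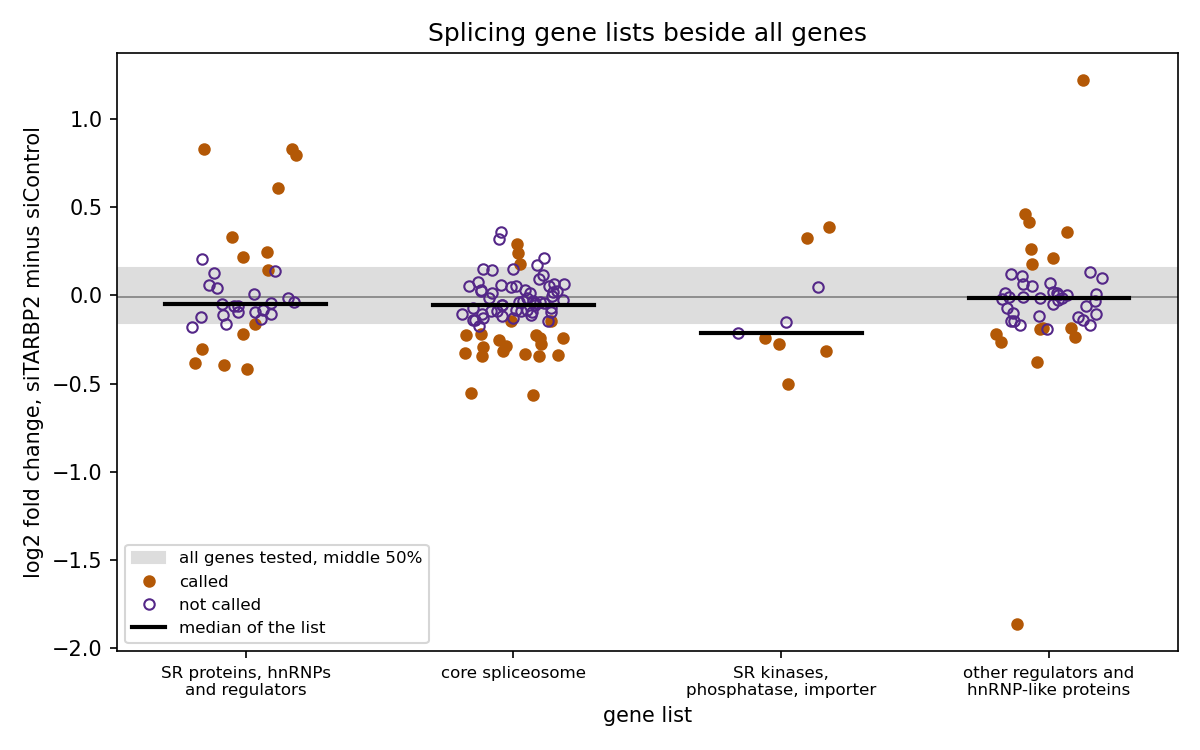
Log2 fold change of each tested gene (y axis) in the 4 lists (x axis), filled where called and open where not, with a bar at the median of each list and a grey band for the middle 50% of all genes tested. The 35 SR, hnRNP and regulator genes spread to both sides, from -0.42 to 0.83, and PTBP3 is the lowest point at -1.86.

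The authors' deposited table gives 1 log fold change per accession, of unstated base, and marks 1240 of 39747 accessions as up-regulated. Of 53 accessions of the members 4 are marked in the authors' deposited table, with values of 0.60 for HNRNPH1, 0.42 for RBFOX2, 0.35 for TRA2A and 0.32 for SRSF7. HNRNPA1, at 0.22 in the authors' deposited table, lies below the lowest marked value of 0.23. It comes from the same arrays and is no separate evidence.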

How the data were processed

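Gene expression was measured on 4 Illumina BeadChip arrays, 2 per group, labelled by transfection. The authors deposited the signal intensity of each probe before normalization, on a linear scale, with a detection p-value beside it, per the file headers. The series matrix holds intensity values the authors normalized by a method not given in the sources used here, and lumi is named in the submitters' processing notes. Another deposited table holds a log fold change of unstated base, treated as a score, and a mark per accession, per the file headers.

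No probe annotation was used. Each deposited fold change was matched to probes by value. Series matrix values were put through an inverse hyperbolic sine with 3 fitted constants. The means of both groups were subtracted, in the direction of the non-normalized table's headings, and an accession's probes were averaged. This joined 39636 accessions to 46938 probes within 1e-09. On values shifted by 1e-06 the same search joined 10 accessions to 1 probe, 36 to a group of neighbouring probes and 2 in a second pass, where the data gave 33119, 6199 and 318. Accessions were named through the RefSeq table without versions (28283 probes, 19400 symbols). The series matrix carries the groups crosswise to the non-normalized table, with a Pearson r across probes of at least 0.99974 against the equally numbered array of the opposite group. The headings of the non-normalized table were used. TARBP2 was low in its knockdown columns.

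Background correction and quantile normalization of the intensity values used limma 3.58.1 in R 4.3.3 (neqc, offset 16), which inferred the negative controls from the detection p-values. Probes with a detection p under 0.01 on 2 or more arrays were kept, 19295 in all. Genes (11439) were read from their brightest probe. Two-sided moderated tests (lmFit, then eBayes with its trend option) set knockdown against control, and p-values were adjusted by Benjamini-Hochberg across the genes tested, with calls made under 0.05. The fits were run on simulated data with known changes and noise drawn from the fitted variances. That checks the calculation only and cannot show whether the variance model holds for these arrays. Alternatives changed the scaling, the detection filter, the handling of probes, the variance model and the arrays included. Nothing ties siTARBP2-1 to siControl-1, and arrays of the same number did not deviate together (r = 0.00229). All members are named, and for each other list up to 2 called genes per direction, taken by unadjusted p. The members and lists were chosen with earlier results of these data known. 1 marker gene of the blood list is not reported here.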

Additional observations from a re-analysis of the deposited data

Results flagged for a closer look

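In the series matrix, which the comparisons above do not use, TARBP2 was 2.57 higher on the log2 scale in the samples labelled knockdown, with means of 9.24 in these and 6.67 in the samples labelled control. With that table's labels as they stand, every direction given here for a splicing regulator would be turned round. The headings of the non-normalized table, in which TARBP2 was low in knockdown, gave the directions used. The authors' deposited table runs the same way, with -1.91 and -1.29 for the TARBP2 accessions. Its values were used to name the probes, in the direction of those headings, so its sign is no separate support.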

How the results depend on the processing

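Of the 14 called members, 7 stayed called under all 12 alternatives (SRSF1, SRSF5, SRSF7, TRA2A, HNRNPA1, HNRNPH3 and RBFOX2), and 0 changed sign. For RBFOX2 the mean of probes took in its dimmer probe, which passed the filter through the knockdown arrays alone. Against 8 higher and 6 lower calls, 3 were lower with median scaling, 5 higher with no detection filter and 5 higher without a variance trend. Leaving out 1 array at a time gave 4 to 9 higher and 4 to 6 lower. With the number of the array as a replicate block 8 rose and 6 fell, and over all genes 1975 and 1994, so it changed no count of the members; only 2 pairs exist and nothing pairs them. For siTARBP2-1, median scaling gave 1 lower call, and no variance trend gave 2 higher and 0 lower. For siTARBP2-2, median scaling gave 0 lower, and no variance trend gave 3 higher and 0 lower. Without a filter 1559 genes rose and 1472 fell of 19400, and with median scaling 1825 and 877 of 11439. Without a variance trend 1432 rose and 1377 fell. These counts over all genes are for both siRNAs together, and none were made for each siRNA under these settings.

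Of the uncalled members 4 gained a call: HNRNPA3 without siTARBP2-1 (0.35) and without siControl-1 (0.34), HNRNPUL2 without siTARBP2-1 (-0.25), HNRNPR without siTARBP2-2 (-0.17) and SRSF10 with the mean of its probes (-0.23). Leaving out 1 array moved HNRNPA3 between 0.0541 and 0.355 and HNRNPUL2 between -0.255 and -0.0102. With the mean of its probes HNRNPR gave -0.02 and was not called (limma adjusted p = 0.795). Small changes of 5 other uncalled members reversed. With median scaling HNRNPF gave 0.0262, HNRNPU 0.0322 and SRSF11 0.0625, and with cyclic loess SRSF11 gave 0.00902. With the mean of probes HNRNPA2B1 gave -0.0710 and HNRNPU 0.00292. Leaving out 1 array at a time spanned -0.154 to 0.0731 for HNRNPF, -0.130 to 0.0535 for HNRNPU, -0.0624 to 0.0358 for SRSF11, -0.0406 to 0.0555 for HNRNPA2B1 and -0.0397 to 0.125 for HNRNPA0. The cause was not tested. Among named genes of the other lists, CWC22, DDX46, SRPK1, PPP1CC, RBM17 and PTBP3 passed under every alternative run, while SNRPD3, LSM4, SRPK2, PPP1CA, CELF2 and SRRM1 missed the threshold under at least 1. The series matrix with its groups crossed, added after seeing the data, gave 8 higher and 6 lower calls, and with its groups as labelled 6 and 8. With 2 arrays a group, signal near background limits QKI, TRA2A and the dimmer RBFOX2 probe.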
